A study of Mus musculus with 6 samples.

Results

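CTCF binding regions at the 3′ ends of protein-coding genes were described in embryonic stem cells of the mouse, a culture of pluripotent cells taken from early embryos. A region was taken as a member when it overlapped the 1000 bp on either side of the 3′ end of a protein-coding gene and lay more than 1000 bp from every annotated transcript start. Genes were those of the GENCODE vM1 annotation of build mm9, and their strand was used to find the 3′ end. By this rule 1899 of the 57644 regions on chromosomes 1 to 19 and X were members, a share of 3.29%, and 55745 were other regions. The whole table, with the remaining chromosomes, held 57662 regions. A further 515 regions touched a 3′ end window but had a transcript start within 1000 bp and were left out.

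The data were 4 CTCF ChIP-seq libraries, in which DNA crosslinked to CTCF is recovered with an antibody and sequenced. In both genotypes the endogenous CTCF carried a degron tag and was removed with auxin, and an introduced CTCF took its place. The 2 WT_CTCF libraries came from cells with wild-type CTCF, and the 2 MUT_CTCF libraries from cells whose CTCF was mutated at T668. T668 is a threonine that can carry O-GlcNAc, a single sugar attached to serine or threonine. The cells were picked clones, and no label ties a library to more than a single clone of its genotype. Genotype and clone therefore cannot be told apart in these libraries. The study reports that its binding results were consistent in additional clones of both genotypes. The study describes the replicates as biological, and no label says which cultures they came from, so the p-values below measure the spread between these libraries. The 1 input library per genotype was not analysed here.

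CTCF reads DNA with a row of zinc fingers that recognise an asymmetric motif, so a bound site has an orientation. Cohesin extrudes chromatin loops and is held up where it meets CTCF in the right orientation, which places loop ends and domain borders at CTCF sites. At the 3′ end of a gene the transcript is cleaved and polyadenylated while RNA polymerase runs on into the downstream sequence. A 3′ end is also where neighbouring transcription units can meet, head to tail or tail to tail.

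Binding was followed by the calls and the scores in the peak list of each library. The score is a value that the peak caller gave a peak on spike-in-scaled coverage. It is neither a read count nor an occupancy, and its formula was not stated. The lowest score was 13 in all 4 lists. The study itself compared scaled read counts over the regions, and those counts per library were not analysed here. A direction given below is therefore that of the peak score and need not be that of the scaled counts. On those counts the study reports a significant global increase of CTCF binding in MUT_CTCF, opposite to the fall in scores below. It also reports more chromatin-bound CTCF in MUT_CTCF by immunoblot. The lists held 49987 and 54001 peaks in WT_CTCF and 33939 and 32712 in MUT_CTCF, and the number of reads behind them is unknown here.

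The members lay mostly just past the end of the gene. The peak summit was downstream of the nearest 3′ end in 1166 members (61.4%) and upstream of it, within the transcribed side, in 733. The median summit lay 242 bp downstream. Within 1000 bp of the 3′ end stood 1526 summits, and within 100 bp stood 125. By the feature under the summit, 1000 members (52.7%) lay outside genes, 470 (24.7%) in a 3′ UTR, 302 (15.9%) in an intron and 127 (6.69%) in another exon.

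**Figure D1:**
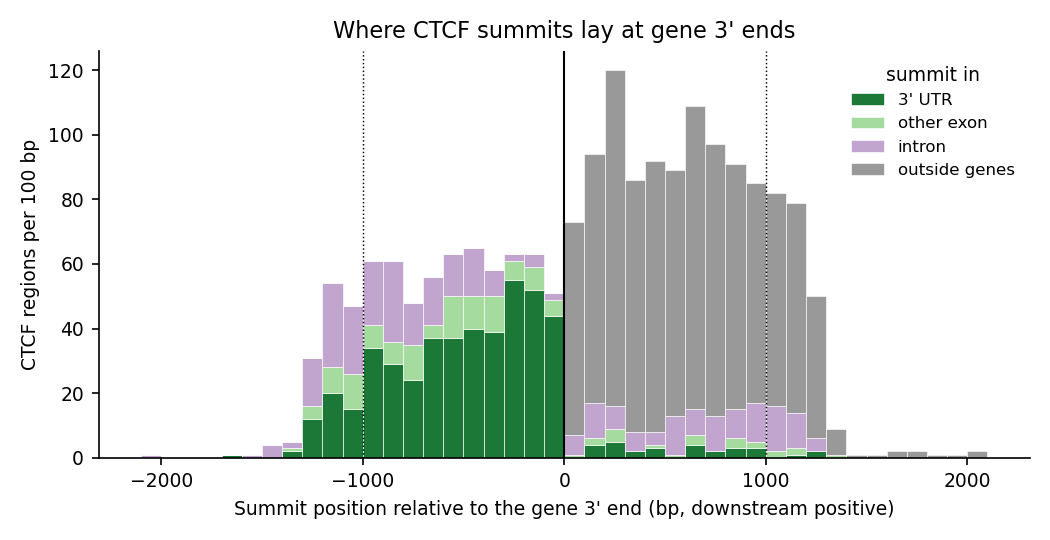
Position of the peak summit of each 3′ end region relative to the nearest gene 3′ end, in bp along the gene's strand (horizontal axis, downstream to the right), against the number of regions per 100 bp (vertical axis), with bars split by the feature under the summit and dotted lines at -1000 and 1000 bp. More summits lie downstream (1166) than upstream (733) of the 3′ end.

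The members were nearest to the 3′ ends of 1810 of 22350 protein-coding genes, 8.10% of them. A single gene had up to 3 members, and 86 genes had more than 1. Most members, 1779, touched the window of 1 gene, 117 touched those of 2 genes and 3 touched those of 3 genes. In 113 members the windows belonged to genes on both strands. Chromosome 11 carried 203 members, 3.87% of its regions, chromosome 7 carried 165 (4.68%), and chromosome X carried 21 (1.54%).

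The sequences at these sites were read from the reference genome of build mm9. The 13-base CTCF core motif was searched on both strands within 150 bp of the summit, with at most 1 mismatch. It was found in 1154 members (60.8%), beside 59.6% of all regions. A match without mismatch was found in 316 members (16.6%) and in 12.4% of all regions. A match is a description of the letters and does not show that CTCF bound there.

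The first set is shown because its motifs lie closest to an annotated 3′ end among matches without mismatch. Only members called in all 4 libraries were considered. The core match is in capitals with 3 flanking bases on each side in lower case, 5′ to 3′ on the strand of the motif.
Nagpa, chr16:5195365-5195377, minus strand: aagCCACCAGGGGGCGtgt
Hs3st5, chr10:36554220-36554232, minus strand: aggCCAGCAGGGGGCGcac
Trim50, chr5:135843897-135843909, plus strand: tgtCCAGCAGAGGGCAgaa
Dpcr1, chr17:35772729-35772741, plus strand: agcCCAGCAGAGGGCGcct
The motif lay 11 bp past the annotated end of Nagpa, an enzyme of lysosomal targeting, 23 bp past that of the heparan sulfate sulfotransferase Hs3st5, and 28 bp past that of the ubiquitin ligase gene Trim50. In Dpcr1 it lay at -38 bp, before the end and in the 3′ UTR.

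The second set shows members with the highest peak scores and a match without mismatch, in the same notation.
Csrp1, chr1:137649666-137649678, minus strand: tggCCAGCAGAGGGCAgcc
Rpl22, chr4:151707221-151707233, plus strand: cctCCAGCAGAGGGCGagg
Bcan, chr3:87791065-87791077, minus strand: tgaCCAGTAGAGGGCGctg
Grm2, chr9:106545691-106545703, minus strand: tcaCCAGTAGAGGGCGcca
The third set shows members whose score fell further than the median region in MUT_CTCF, also with a match without mismatch.
C330006K01Rik, chr5:142954912-142954924, plus strand: tggCCACCAGATGGCGcca
Skap2, chr6:51808066-51808078, minus strand: tggCCAGCAGATGGCAgca

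The fourth set shows the 2 most frequent core matches at the members, each with the 7 bases that follow it, because these letters recur across the genome.
Most frequent core with its run: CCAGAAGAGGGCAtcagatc
Next core with its run: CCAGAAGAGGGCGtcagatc
The first core was the best match in 209 members, 18.1% of those with a motif, and in 7832 other regions (23.6%). The second was the best match in 93 members (8.06%) and in 4318 other regions. Each differs from the motif by 1 mismatch. The first core occurs 38522 times in the genome and its run 15772 times. The second core occurs 10018 times and its run 5877 times. The runs stood in 77 of the 209 and in 44 of the 93 members. B2 elements, a family of short interspersed repeats of rodents, are known to carry CTCF motifs. Repeats were not annotated here, and the authors removed reads that aligned to several places.

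The strand of the motif was set against the strand of the gene. The motif read on the strand of the gene in 639 of 1154 members (55.4%), and in 51.2% of the other regions relative to their nearest 3′ end. Among members whose summit lay downstream of the 3′ end it was 430 of 739 (58.2%), and among those upstream 209 of 415 (50.4%). The share was highest, at 61.6%, in the first 500 bp downstream and lowest, at 45.2%, in the last 500 bp of the gene. Other regions 1 to 5 kb downstream of a 3′ end gave 971 of 1822 (53.3%). Restricted to matches without mismatch, the share was 61.0% of 187 downstream members and 59.1% of 403 other regions 1 to 5 kb downstream. These are shares of sites in 1 genome, which carry no replicate error, and they were not tested. The 2 frequent cores gave 57.1% of 231 downstream members and the remaining matches 58.7% of 508.

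The ends of the genes were compared by their poly(A) signal. The hexamer AATAAA, the usual signal for cleavage and polyadenylation, was present in the last 50 bases of 1098 of the 1810 genes (60.7%) and of 12178 of all 22350 genes (54.5%). The variant ATTAAA was present in 15.7% and 15.3%. Genes at members were a little longer, with a median of 17559.5 bp against 15427.5 bp over all genes. The next gene downstream faced them tail to tail in 39.9% of cases, beside 39.5% of all genes. The median gap to that gene was 8108 bp for these genes and 11055 bp for all genes. Where the start of the next gene came first instead, the median gap was 13995 bp and 18746 bp. The rule asks for more than 1000 bp from every transcript start, so it bears on gene length and on these gaps. Its part in the differences was not tested.

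Calls at the members were fewer in MUT_CTCF. WT_CTCF replicates 1 and 2 called 1692 and 1783 members, and MUT_CTCF replicates 1 and 2 called 1225 and 1189. Pairs of values below keep this order of replicates. The groups did not overlap. WT_CTCF averaged 1737.5 ± 64.3 members (SD, n = 2), and MUT_CTCF averaged 1207 ± 25.5 (SD, n = 2), which is 0.695 of the former. The difference of -530.5 was larger than the spread between replicates, and the exact two-sided permutation test gave p = 0.333, the smallest that 2 libraries against 2 allow.

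The members kept more of their calls than other regions did. As shares, 89.1% and 93.9% of members had a WT_CTCF peak, and 64.5% and 62.6% had a MUT_CTCF peak. Of the other regions 86.2% and 93.4% were called in WT_CTCF and 58.1% and 55.9% in MUT_CTCF. The members were ahead by 2.86 and 0.466 percentage points in WT_CTCF and by 6.46 and 6.68 in MUT_CTCF. The lead was 4.90 points larger in MUT_CTCF (two-sided exact permutation, p = 0.333).

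**Figure D2:**
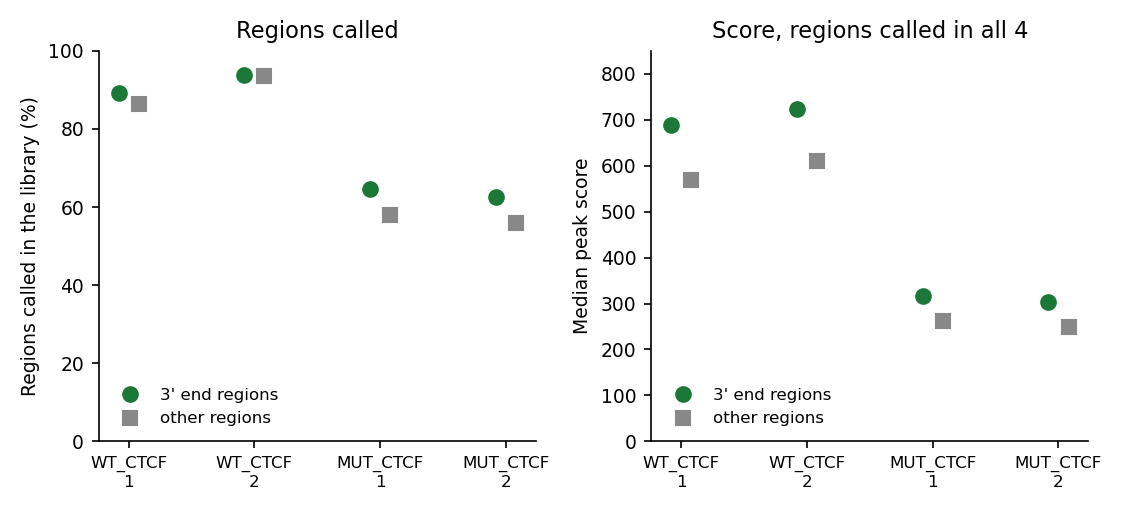
Share of regions with a peak (percent) and median peak score of the regions called in all 4 libraries, by library, for the 3′ end regions and the other regions, each point being 1 library. Both measures are lower in both MUT_CTCF libraries, and the 3′ end regions lie above the other regions in each library.

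By pattern of calls, 1136 members (59.8%) were called in all 4 libraries, beside 52.6% of all regions. WT_CTCF alone, with both of its replicates, had a peak at 324 members (17.1%), beside 19.5% of all regions. MUT_CTCF alone, with both of its replicates, had a peak at 0 members and at 16 of all regions (0.0278%). A peak in MUT_CTCF replicate 1 alone was found in 5 members (0.263%), beside 0.186% of all regions. In MUT_CTCF replicate 2 alone it was found in 1 member (0.0527%), beside 0.0937%. A peak in WT_CTCF replicate 2 alone was found in 191 members (10.1%), beside 12.8% of all regions, and in WT_CTCF replicate 1 alone in 108 (5.69%), beside 5.98%.

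The level of the region moved with this difference. The authors' mean, the mean scaled read count of a region over the 4 libraries, had a median of 140 in members and 94.25 in other regions, and the members were wider, at a median of 511 bp against 450 bp. A wider region reaches a 3′ end window more easily but also comes near a transcript start more easily. The part of the rule in the width was not tested. When regions were split into 4 classes at the quartiles of the authors' mean, the share of members called in both MUT_CTCF libraries from the lowest to the highest class was 0%, 17.2%, 89.3% and 98.5%. In other regions it was 0.0425%, 21.7%, 91.2% and 98.4%. Within these classes the members were close to other regions or below them. The authors' mean includes both MUT_CTCF libraries, so the class itself bears on the MUT_CTCF call. Closeness within a class is therefore partly built in. In the next to lowest class 51.3% of members and 43.8% of other regions had peaks in WT_CTCF alone. In the highest class this was 1.08% of members and of other regions. From the lowest to the highest class the median width was 220, 371, 530 and 696 bp in members. In other regions it was 224, 370, 525 and 686 bp.

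The scores of the members fell as well. Over the 1136 members called in all 4 libraries the median score was 688 and 723 in WT_CTCF and 317 and 303 in MUT_CTCF. These medians averaged 705.5 ± 24.7 in WT_CTCF and 310 ± 9.90 in MUT_CTCF, or 0.439 of the former (SD, n = 2 each; two-sided exact permutation, p = 0.333). Other regions had medians of 569 and 611 in WT_CTCF and 263 and 250 in MUT_CTCF. The members stood 0.27 and 0.24 above them on the log2 scale in WT_CTCF and 0.27 and 0.28 in MUT_CTCF. The lead of MUT_CTCF and that of WT_CTCF overlapped (two-sided exact permutation, p = 0.667).

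Peaks at the members were narrower in MUT_CTCF. The median width was 556.5 and 588.5 bp in WT_CTCF and 426.5 and 414.5 bp in MUT_CTCF. The means were 572.5 ± 22.6 bp and 420.5 ± 8.49 bp (SD, n = 2 each; two-sided exact permutation, p = 0.333). Other regions narrowed alike, from 525 and 553 bp in WT_CTCF to 400 and 385 bp in MUT_CTCF. The summit itself moved little. The median distance between the summits of a member was 7 bp between the WT_CTCF libraries, 8 bp between the MUT_CTCF libraries and 10 to 11 bp between libraries of different genotype. In other regions these distances were also 7 bp, 8 bp and 10 to 11 bp.

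Each region was then tested with limma on the log2 score over all 30312 regions called in all 4 libraries. With an adjusted p below 0.05 (Benjamini-Hochberg over all 30312), 1039 of the 1136 members (91.5%) were lower in MUT_CTCF, beside 90.8% of all regions tested. None was higher, beside 12 of all regions (0.0396%), and no member was higher at an unadjusted p below 0.05 either. Both MUT_CTCF scores were below both WT_CTCF scores in 1091 members (96.0%), beside 96.2% of all regions. The median log2 difference was -1.11 in members, with quartiles of -1.46 and -0.84, and -1.18 over all regions. These shares are those of the whole table. Without WT_CTCF replicate 2 no region of the table passed the threshold, although 697 members had an unadjusted p below 0.05. Without WT_CTCF replicate 1, 490 members (43.1%) passed, beside 43.1% of all regions.

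A second scale removed the fall that all regions shared. Each library was centred on its own median log2 score, so that a region is higher or lower relative to the rest of its library. On this scale 92 members (8.10%) were lower in MUT_CTCF, beside 8.49% of all regions, and 168 (14.8%) were higher, beside 10.9%. The median centred difference was 0.10 in members and 0.03 over other regions. A cyclic loess scale, which also removes dependence on the level of the score, gave 100 members lower (8.80%, beside 9.03%) and 119 higher (10.5%, beside 7.79%). Of the members' calls, those higher in MUT_CTCF were 0% on the deposited scale, 64.6% after centring and 54.3% after loess. Over all regions these shares were 0.0436%, 56.3% and 46.3%, so the shift with the scale is that of the whole table. Without WT_CTCF replicate 1 the median centred difference was 0.11 in members and 0.03 over all regions. Without WT_CTCF replicate 2 it was 0.08 and 0.02.

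**Figure D3:**
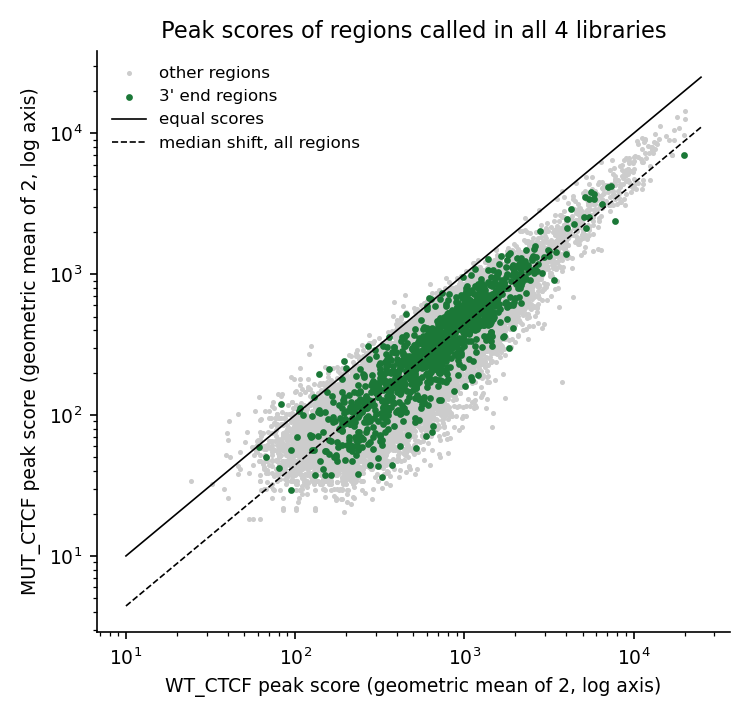
Geometric mean of the 2 peak scores in WT_CTCF (horizontal, log axis) against that in MUT_CTCF (vertical, log axis) for the 3′ end regions called in all 4 libraries, with the other regions behind them, each point being 1 region. The dashed line marks the median shift of all regions. Most points lie below the solid line of equal scores, and the median log2 difference of the 3′ end regions is -1.11.

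The highest peak stood at Gdf15, a stress-induced cytokine of the TGF-beta family. It covered 1477 bp at chr8:73153239-73154715, in an exon, and its summit lay at -528 bp from the 3′ end, on the transcribed side. The scores were 18853 and 20934 in WT_CTCF and 7418 and 6706 in MUT_CTCF. The groups were far apart, and the log2 difference was -1.49 ± 0.08 (SE; limma, adjusted p = 6.08e-06). After centring Gdf15 was still lower, by -0.28 (adjusted p = 0.00045).

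The other members ranked highest by mean log2 score over all 4 libraries fell less than the median of -1.11. This ranking includes the MUT_CTCF scores, so a strong peak that fell far, such as Susd2, ranks lower. At Rpl22, a protein of the large ribosomal subunit, the scores were 7016 and 7093 in WT_CTCF and 4494 and 3832 in MUT_CTCF, a log2 difference of -0.77 ± 0.10 (SE; limma, adjusted p = 7.26e-05). At Csrp1, a LIM domain protein, they were 5315 and 6334 against 3673 and 3692, a difference of -0.66 ± 0.10. At Bcan, which encodes the brain proteoglycan brevican, they were 5366 and 5904 against 4183 and 3550, a difference of -0.55 ± 0.11. At all 3 both MUT_CTCF scores were below both WT_CTCF scores, and all 3 were called higher after centring, by 0.45, 0.56 and 0.67. On the loess scale the values were 0.14 at Rpl22, which was no longer called (limma, adjusted p = 0.218), 0.27 at Csrp1 and 0.38 at Bcan, which still were.
At Grm2, a metabotropic glutamate receptor, the scores were 6438 and 6564 against 3041 and 3230. Its fall of -1.05 ± 0.09 was near the median, and centred it was 0.16 (adjusted p = 0.196).
Glt25d2 had 5692 and 5257 against 3275 and 3577, 1500009C09Rik had 5453 and 6208 against 3385 and 3403, and BC020535 had 7193 and 7488 against 4427 and 4073. These 3 were called lower on the deposited scale and higher after centring. On the loess scale only Glt25d2 was still called higher, by 0.26. 1500009C09Rik had 0.15 and BC020535 had 0.11, with adjusted p = 0.204 and 0.317 from limma.

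Some members fell further than the rest. At Gnai2, an inhibitory G protein alpha subunit, the scores were 1640 and 2046 in WT_CTCF and 263 and 343 in MUT_CTCF. The log2 difference was -2.61 ± 0.19 (SE; limma, adjusted p = 8.63e-06) and the centred one -1.40. At Rpn1, a subunit of the oligosaccharyltransferase that adds N-glycans, they were 1585 and 1781 against 392 and 329, a difference of -2.23 ± 0.17. The groups did not overlap in either.
At Skap2, an adaptor of Src family kinases, the scores were 3171 and 3603 against 885 and 936, and at C330006K01Rik they were 1936 and 1937 against 428 and 405. At Susd2, a membrane protein with a sushi domain, they were 7266 and 8204 against 2487 and 2277, and the log2 difference was -1.70. The WT_CTCF scores of Susd2 were above those of Rpl22 and Grm2. Both MUT_CTCF libraries lay below both WT_CTCF libraries at each, and each was also lower after centring.

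The largest falls were at peaks of lower score. At Ppp1r15a, a phosphatase subunit that restores translation after stress, the scores were 586 and 697 in WT_CTCF and 48 and 118 in MUT_CTCF, a log2 difference of -3.09 ± 0.39 (SE; limma, adjusted p = 7e-05). At Pla2g4d, a phospholipase A2, they were 302 and 347 against 26 and 50, and the motif there is the most frequent core. At Rnf112 they were 369 and 379 against 44 and 44, and at 1700061G19Rik 500 and 530 against 50 and 69. The MUT_CTCF scores at these 4 members ranged from 26 to 118, and the standard errors of their log2 differences from 0.31 to 0.41.

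**Figure D4:**
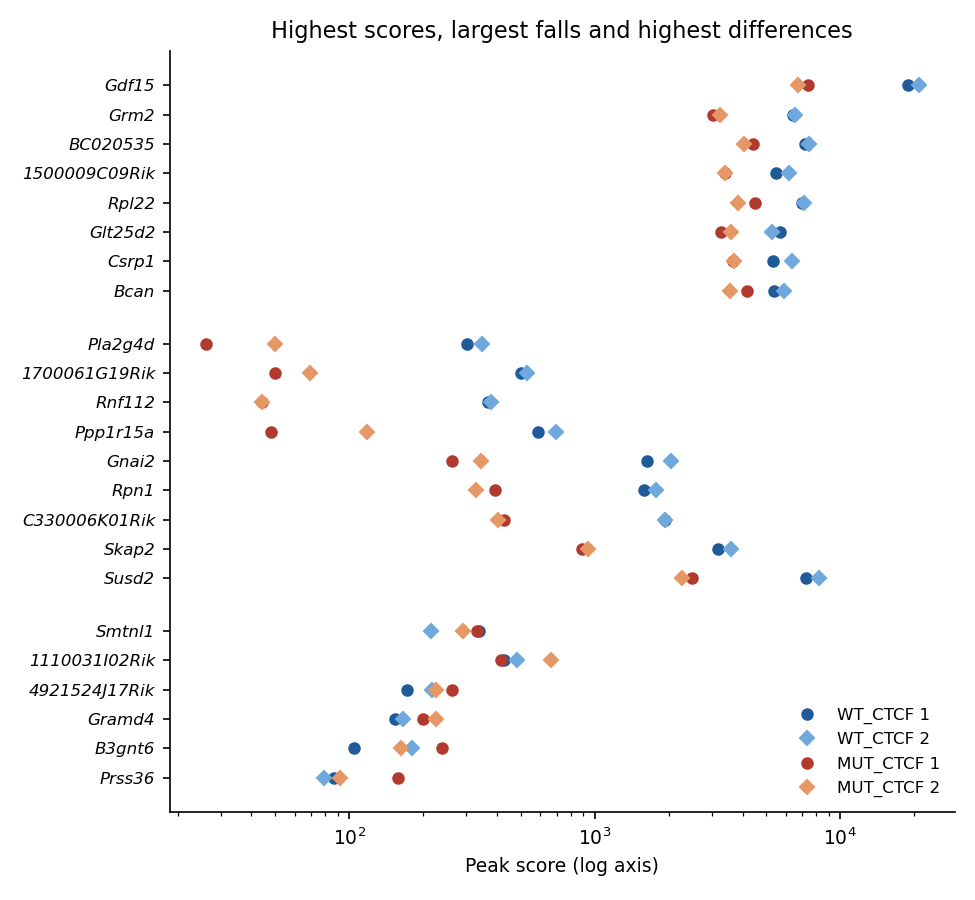
Peak score (log axis) of the 3′ end regions named for the highest scores, the clearest or largest falls and the highest differences, in each library, with WT_CTCF and MUT_CTCF replicates as separate points. At Gnai2, for example, the WT_CTCF scores are 1640 and 2046 and the MUT_CTCF scores 263 and 343.

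The members with the highest difference toward MUT_CTCF were lower peaks. At Gramd4 the scores were 153 and 165 in WT_CTCF and 200 and 225 in MUT_CTCF. At Prss36, a serine protease, they were 87 and 79 against 158 and 92. At B3gnt6, a glycosyltransferase, they were 105 and 181 against 238 and 163.
The groups overlapped at B3gnt6 and stood apart at Gramd4 and Prss36. The log2 differences were 0.42, 0.54 and 0.51, and limma gave adjusted p = 0.191, 0.211 and 0.196. The other 3 members of this kind, 4921524J17Rik, 1110031I02Rik and Smtnl1, had differences of 0.33, 0.21 and 0.20, and the groups overlapped at the last 2. None of the 6 passed the test on the deposited scale, and all 6 were higher after centring, by 1.41 to 1.75. The sign at 1110031I02Rik turned without MUT_CTCF replicate 2, to -0.12, and that at Smtnl1 turned without WT_CTCF replicate 2, also to -0.12.

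Strong peaks that were absent from MUT_CTCF were few. Of the 1003 members whose WT_CTCF scores were both at least 250, the median score over the 4 lists, 6 (0.598%) had no peak in either MUT_CTCF library, beside 334 of 24375 other regions (1.37%). They lay at Arpc2, Zp3r, Ccr10, Tymp, Cdh22 and Prrt3. Arpc2 and Zp3r were named after their values were seen. At Prrt3 the WT_CTCF scores were 652 and 653. At Tymp, thymidine phosphorylase, they were 447 and 677, at the chemokine receptor gene Ccr10 330 and 431, and at the cadherin gene Cdh22 322 and 388. The median G+C content of the 6 was 65.3% and ranged from 42.2% to 72.8%, beside 48.5% over all members. The 334 other regions of this kind had a median of 61.1%. Over all 324 members called in WT_CTCF only the median was 47.2%, and over members called in all 4 libraries it was 49.8%. The motif was found in 2 of the 6.

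Members that touched the 3′ end windows of genes on both strands were compared with the rest. Of these 113 members 70 (61.9%) were called in all 4 libraries and 13 (11.5%) in WT_CTCF only. Of the 1786 members on 1 strand the shares were 59.7% and 17.4%. The 113 had a higher median of the authors' mean, 170.75 against 136.1, and of G+C content, 52.2% against 48.2%. The parts of level and G+C content in these shares were not tested. Of the 70, 61 (87.1%) were lower in MUT_CTCF, beside 91.7% of the tested members on 1 strand and 90.8% of all regions. The strongest stood outside genes in the windows of Psrc1 and Celsr2, a cadherin of planar cell polarity, with scores of 4196 and 4750 in WT_CTCF and 2382 and 2182 in MUT_CTCF. The log2 difference there was -0.97 ± 0.11 (SE; limma, adjusted p = 3.74e-05).
At Ephx1, an epoxide hydrolase, and Tmem63a, where the summit lay in an intron, the scores were 1528 and 1615 against 751 and 641. At Duoxa2 and Duoxa1, maturation factors of the dual oxidases, where the summit lay in a 3′ UTR, they were 1177 and 1410 against 769 and 737. At the deubiquitinase gene Usp20 and Fnbp1, where it lay outside genes, they were 1361 and 1580 against 962 and 1208.
Usp20 had the smallest fall of the 6 named pairs, -0.44 ± 0.16 (limma, adjusted p = 0.0194), and it was called higher after centring, by 0.77. The remaining pairs were Klhdc9 with Pfdn2, a prefoldin subunit, with scores of 1649 and 1570 against 953 and 672, and Nkiras2 with Zfp385c, with 1410 and 1522 against 737 and 587.

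The 4 members named for a motif nearest an annotated 3′ end fell like the rest. They were taken from members called in all 4 libraries, so a member without a MUT_CTCF peak could not enter. At Nagpa the scores were 698 and 834 in WT_CTCF and 372 and 400 in MUT_CTCF, a log2 difference of -0.98 ± 0.19. At Hs3st5 they were 520 and 620 against 212 and 276, a difference of -1.23 ± 0.24. At Dpcr1 they were 1391 and 1451 against 721 and 496, a difference of -1.25 ± 0.19. The adjusted p from limma was 0.000744, 0.000701 and 0.000169.
At Trim50 the scores were 317 and 330 against 135 and 255, a difference of -0.80 ± 0.33 (limma, adjusted p = 0.0365). None of these 4 passed the test after centring.

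Across the position of the summit the members differed by a few percentage points. The share called in all 4 libraries was 63.7% more than 500 bp upstream, 60.3% in the last 500 bp, 56.4% in the first 500 bp downstream and 59.4% beyond. By feature it was 58.0% outside genes, 60.9% in 3′ UTRs, 65.6% in introns and 56.7% in other exons. The median log2 difference was -1.09, -1.14, -1.10 and -1.22 in the same order. The share of members called in WT_CTCF only was lowest in 3′ UTRs, at 13.8%, and highest outside genes, at 18.7%. These splits move with the level of the regions. The authors' mean had a median of 179 more than 500 bp upstream and 115.5 in the first 500 bp downstream.

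The letters of the motif went with the calls more than the position did. Of the 316 members with a match without mismatch, 92.1% were called in all 4 libraries and 2.85% in WT_CTCF only. Of the 302 members whose best match was one of the 2 frequent cores, 37.7% were called in all 4 and 30.5% in WT_CTCF only. The 536 members with another core at 1 mismatch gave 73.3% and 11.8%, and the 745 without a match 45.4% and 21.5%. In other regions the shares called in all 4 libraries were 83.3%, 38.8%, 67.8% and 40.5% in the same order.

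The difference was seen in each library. The frequent cores were called in 85.8% and 90.7% of members in WT_CTCF and in 43.7% and 41.1% in MUT_CTCF. Matches without mismatch were called in 98.1% and 99.4% and in 93.7% and 94.0%. In other regions the MUT_CTCF shares were 45.8% and 43.0% for the frequent cores and 86.6% and 85.5% without mismatch, a contrast in the same direction. The level moved with the groups, with a median of the authors' mean of 260 for matches without mismatch, 62.4 for the frequent cores, 197 for other cores and 86.5 without a match. The part of the level in these shares was not tested. Among the members called in all 4 libraries, 276 of 291, 107 of 114, 359 of 393 and 297 of 338 were lower in MUT_CTCF, in the order without mismatch, frequent cores, other cores and no match. These are 94.8%, 93.9%, 91.3% and 87.9%, beside 93.0%, 91.9%, 91.5% and 88.0% of other regions.

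**Figure D5:**
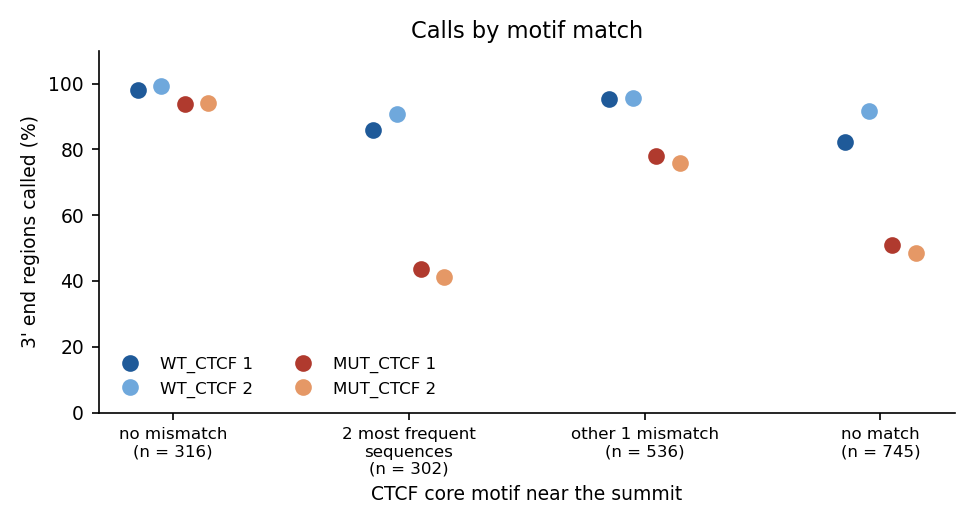
Share of 3′ end regions called in each library (vertical axis, percent) by the core motif near the summit, with 1 point per library. Matches without mismatch stay above 93% in all 4 libraries, while the 2 frequent cores drop from 85.8% and 90.7% in WT_CTCF to 43.7% and 41.1% in MUT_CTCF.

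Single cores showed the same range. The sequence CCAGAAGAGGGCA was called in all 4 libraries in 77 of 209 members (36.8%) and CCAGAAGAGGGCG in 37 of 93 (39.8%). The next cores were far fewer. CCACCAGGGGGCA, without mismatch, was called in all 4 libraries in 26 of 27 members. CCACAAGAGGGCA, with 1 mismatch, was called in 14 of 22, and CCAGCAGGGGGCA, without mismatch, in 17 of 22. In other regions with these cores the shares called in all 4 libraries were 37.4%, 41.2%, 87.6%, 67.8% and 82.8% in the same order. The frequent cores lay downstream of the 3′ end in 155 of 209 and 76 of 93 members. Together this was 76.5%, beside 59.2% of members without mismatch, 59.9% with other cores and 57.3% without a match. In other regions, relative to their nearest 3′ end, these shares were 40.7%, 42.6%, 41.5% and 41.1%.

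G+C content also went with the scores. From the lowest to the highest of 4 G+C classes, split at the quartiles over all regions, 22.8%, 18.1%, 17.7% and 13.3% of members were called in WT_CTCF only. In other regions these shares were 22.4%, 20.2%, 17.3% and 18.4%. After centring, 3.82%, 9.33%, 17.1% and 19% of tested members were higher in MUT_CTCF, and 3.18%, 6.22%, 6.29% and 11.4% were lower. In other regions the higher shares were 5.51%, 8.62%, 10.1% and 17.8%, and the lower shares 8.26%, 6.72%, 7.31% and 11.4%. The level rose over the same classes, with medians of the authors' mean of 66.9, 98.8, 128.6 and 199.6 in members. In other regions they were 70.3, 84.1, 100.5 and 149.3. The median G+C content was 48.5% in members and 45.8% in other regions. The parts of G+C content and of level in the WT_CTCF only and centred calls were not tested.

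Genes of 6 listed pathways were looked up among the members. Over all protein-coding genes, 8.10% were nearest to a member. Of 20 pluripotency genes, 19 of them in the annotation, 2 had a member, Nanog and Zfp42. At Nanog, a transcription factor that sustains pluripotency, the peak lay in the 3′ UTR at chr6:122663482-122663953. The scores were 203 and 273 in WT_CTCF and 48 and 30 in MUT_CTCF, and the groups did not overlap. The log2 difference was -2.63 ± 0.41 (SE; limma, adjusted p = 0.00019), and -1.42 after centring (adjusted p = 0.0118). The best match near its summit is the second frequent core.
Nanog, chr6:122663705-122663717, plus strand: actCCAGAAGAGGGCGtca
At Zfp42, another marker of the pluripotent state, the score was 28 in both WT_CTCF libraries and no peak was called in MUT_CTCF.

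Of 26 imprinted genes 2 had a member. At Magel2 the scores were 705 and 723 in WT_CTCF and 188 and 212 in MUT_CTCF, a log2 difference of -1.84 ± 0.22 (SE; limma, adjusted p = 4.8e-05). After centring the difference was -0.63 (adjusted p = 0.0561). Phlda2 had a peak of score 33 in WT_CTCF replicate 1 only.
Of 18 genes of CTCF and cohesin 2 had a member. At Wapal, which releases cohesin from chromatin, the scores were 176 and 138 in WT_CTCF and 48 in MUT_CTCF replicate 1, with no peak in replicate 2. At Zfp143, a zinc finger protein, a peak of score 47 was called in WT_CTCF replicate 2 only.
Of 26 genes of cleavage and polyadenylation 2 had a member. At the poly(A) polymerase gene Papola the scores were 189 and 302 in WT_CTCF and 47 in MUT_CTCF replicate 2. Cstf3, a subunit of the cleavage stimulation factor, had a peak of 28 in WT_CTCF replicate 1.
Of 26 lineage regulators, 25 of them in the annotation, only Lefty1 had a member. Lefty1, an inhibitor of Nodal, had scores of 50 and 113 in WT_CTCF and no peak in MUT_CTCF. Of 11 genes of O-GlcNAc cycling and hexosamine synthesis, 10 of them in the annotation, none had a member. Over the 6 lists 2 members could be tested, those at Nanog and Magel2, and both were lower in MUT_CTCF, as were 90.8% of all regions tested.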

How the data were processed

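Per the labels and the study's methods, reads were trimmed with Trim Galore 0.4.4, aligned with Bowtie2 2.3.4.1 to mm9, and stripped of multiply aligned and duplicate reads. Drosophila chromatin served as a spike-in. The authors called peaks per library with MACS2 2.1.1.20160309 on scaled coverage, and their deposited score is the caller's value, of undefined formula. The summit offset of each peak, deposited in bp from its start, was read from the same lists. The deposited table of joined regions gives a mean scaled signal per region over the 4 libraries, printed as the authors' mean. Its other 5 columns hold the authors' comparison (log2 fold change, standard error, statistic, p-value and adjusted p-value) and were not used. The files held 0 further columns of per-sample values.

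Every peak lay inside 1 region, and a region took the highest score of its peaks. Log2 scores were tested with limma 3.58.1 (R 4.3.3, trend in the variance), as deposited and after centring on the library median. Counts, medians and widths were compared with an exact two-sided permutation test. The fit was tested on simulated data. Tables were made in Python 3.11.15 with pandas 2.3.3 and numpy 2.4.6, permutations with scipy 1.17.1, and plots with matplotlib 3.10.9. Read depth is unknown, and counting error has no interval here. Members were placed with the GENCODE vM1 annotation, and motifs were read from the mm9 reference.

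Members and gene lists were chosen with earlier results of these data known. Named regions were, outside chromosome 18, the 8 highest scores, the 6 smallest adjusted p and 4 largest falls, the 6 highest differences, the 4 highest peaks of WT_CTCF only, the 6 strongest members with 3′ ends on both strands, the 4 motifs without mismatch nearest a 3′ end, and the listed genes. Replicates share numbers across genotypes. Over 30312 regions the deviations of same-numbered libraries had a correlation of -0.00316 across regions, and no pairing was assumed.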

Additional observations from a re-analysis of the deposited data

How the results depend on the processing

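The limits are set by 2 libraries per genotype from picked clones, by a score of unstated formula, and by calls that go missing at low levels. Windows of 500 and 2000 bp gave 1.99% and 5.88% of regions as members, of which 660 and 1794 were lower in MUT_CTCF. Only regions above the median of mean scores gave 634, and centring gave 92 lower and 168 higher in place of 1039 and 0. After centring the difference in median member score was 0.0256 on the log2 scale (exact two-sided permutation test, p = 0.667). Leaving out each library gave 0 to 896 lower, and 32 to 121 lower and 84 to 174 higher after centring. With all libraries the median log2 difference was -1.11 in members and -1.18 over all regions. Without WT_CTCF replicates 1 and 2 in turn it was -1.16 and -1.07 in members, and -1.24 and -1.13 over all regions. Without MUT_CTCF replicates 1 and 2 in turn it was -1.16 and -1.09 in members, and -1.21 and -1.16 over all regions. Both medians moved the same way each time. The count of members in WT_CTCF only was 623 where 1 replicate sufficed and 371 to 515 without a library, and that in MUT_CTCF only was 6 and 0 to 5. No mismatch gave a motif in 16.6%. Of the named calls, 29 were lost without WT_CTCF replicate 2, 12 without WT_CTCF replicate 1, and 2 without either MUT_CTCF replicate. The cause was not tested.

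With the replicate block, 1037 members were lower, 94 lower and 171 higher after centring, and the block changed no other call. Its smallest p for a difference between libraries was 0.5. Centring turned 15 named differences positive, relative to the library median. They were 0.56 at Csrp1, 0.54 at Glt25d2, 0.20 at Klhdc9, 0.033 at Ephx1, 0.057 at Nkiras2, 0.43 at 1500009C09Rik, 0.23 at Nagpa, 0.77 at Usp20, 0.44 at Duoxa2, 0.42 at BC020535, 0.67 at Bcan, 0.24 at Psrc1, 0.45 at Rpl22, 0.41 at Trim50 and 0.16 at Grm2. Without each library in turn the difference ranged from -0.12 to 0.55 at 1110031I02Rik and from -0.12 to 0.53 at Smtnl1. The loess scale, the block and left-out libraries on centred scores, the splits by level and G+C and the groups of cores were chosen after seeing the data. Of 89 other settings of the main results, 68 gave the same call or a value within the spread or 1.5 times.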
